A study of Mus musculus with 5 samples.

Results

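Midkine (*Mdk*) and pleiotrophin (*Ptn*) and the receptors protein tyrosine phosphatase receptor zeta 1 (*Ptprz1*), anaplastic lymphoma kinase (*Alk*), LDL receptor-related protein 1 (*Lrp1*) and syndecan 3 (*Sdc3*) were followed through single cell transcriptomes of mouse synovial sarcoma (SyS). The members were the 6 genes with these symbols, and all 6 were found among the 32286 features of the deposited matrices. The 5 tumors came from *hSS2* mice, which carry the human *SS18::SSX2* fusion at the Rosa26 locus and express it once TATCre protein has been injected into the limb, here in the second week of life, and they were taken at morbidity. All 5 tumors therefore share the fusion, and tissue without it was not analysed here. The labels give 2 tumors as BP (biphasic, with an epithelial component beside spindle cells), 1 as MP (monophasic, spindle cells), 1 as MP+BP and 1 as PD+MP (poorly differentiated and monophasic). Both BP labels start with the same number, whose meaning was not stated, so whether they come from 1 animal is not known. Because 3 labels hold 1 tumor each, values between single labels are given without a test.

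Midkine and pleiotrophin form a family of secreted, heparin-binding growth factors that are abundant in the embryo, decline after birth and return in many tumors. PTPRZ1 is a transmembrane phosphatase carrying chondroitin sulfate chains, and ligand binding clusters it and lowers its phosphatase activity. ALK is a receptor tyrosine kinase of the developing nervous system whose activating ligands are the ALKAL proteins, and which both growth factors have been reported to engage. LRP1 is a large endocytic receptor and SDC3 is a heparan sulfate proteoglycan, and both bind these ligands at the cell surface.

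On mouse genome build GRCm38 all 6 are protein coding genes. *Mdk* is at chr2:91929805-91932297 on the minus strand, *Ptn* at chr6:36714929-36810220 on the minus strand, and *Ptprz1* at chr6:22875502-23052916 on the plus strand. *Alk* is at chr17:71868972-72604627 on the minus strand, *Lrp1* at chr10:127538161-127621148 on the minus strand, and *Sdc3* at chr4:130792537-130826319 on the plus strand. *Alk* shares its strand and interval with 3 other annotated genes, so its counts are uncertain where reads could belong to either. The 3 promoters that bear on the results are given for *Ptn*, the ligand found in both tumor cells and endothelium, and for *Alk* and *Ptprz1*, the receptors with few UMIs in the macrophage-like, endothelial-like and pericyte-like classes. Each runs from 250 bases before to 50 bases after the RefSeq transcription start (GRCm38.p6), 5′ to 3′ on the gene's strand, with CG dinucleotides in capitals.
*Ptn*, chr6:36810130-36810429, minus strand: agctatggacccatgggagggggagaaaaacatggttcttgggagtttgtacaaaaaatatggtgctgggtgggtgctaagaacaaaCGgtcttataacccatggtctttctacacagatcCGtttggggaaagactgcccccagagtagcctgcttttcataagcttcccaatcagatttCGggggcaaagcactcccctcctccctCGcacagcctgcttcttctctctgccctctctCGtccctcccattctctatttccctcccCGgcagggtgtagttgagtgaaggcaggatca
*Alk*, chr17:72604258-72604557, minus strand: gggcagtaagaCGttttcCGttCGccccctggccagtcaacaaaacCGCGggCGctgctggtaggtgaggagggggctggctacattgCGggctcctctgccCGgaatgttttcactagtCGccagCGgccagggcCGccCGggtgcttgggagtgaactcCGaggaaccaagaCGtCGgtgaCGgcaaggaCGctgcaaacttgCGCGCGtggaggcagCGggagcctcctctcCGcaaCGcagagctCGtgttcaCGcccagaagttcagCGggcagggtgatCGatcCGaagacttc
*Ptprz1*, chr6:22875252-22875551, plus strand: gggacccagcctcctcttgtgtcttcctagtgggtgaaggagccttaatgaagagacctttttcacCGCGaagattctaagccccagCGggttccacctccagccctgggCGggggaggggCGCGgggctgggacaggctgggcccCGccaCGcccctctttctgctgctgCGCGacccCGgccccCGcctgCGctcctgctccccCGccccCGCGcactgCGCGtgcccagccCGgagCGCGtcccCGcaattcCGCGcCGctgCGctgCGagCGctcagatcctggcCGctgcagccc

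The *Ptn* promoter held 6 CG dinucleotides and had a GC content of 52.0%, close to the median of 7 CG dinucleotides over 32851 mouse promoters of the same length. The *Alk* and *Ptprz1* promoters held 28 and 29, numbers reached by 14.2% and 12.9% of all promoters. Among the members not printed, the *Sdc3* promoter held 44, reached by 2.25% of promoters, and the *Lrp1* promoter 16, reached by 33.0%. The GC box GGGCGG, searched on both strands, occurred in the *Alk*, *Ptprz1*, *Lrp1* and *Sdc3* windows but not in the *Ptn* window, and 35.7% of all promoters held it. TATAAA, also searched on both strands, was in none of the 5 windows and in 13.6% of all promoters. No match in this table was found for *Mdk*.

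Of 51670 cells called, 39559 were kept, with a median of between 6339.5 UMIs (unique molecular identifiers, each standing for 1 captured RNA molecule) per cell in MP+BP and 8535.5 in BP replicate 1. Clustering without the 6 members gave 27080 SyS-like, 3793 macrophage-like, 1255 endothelial-like and 1247 pericyte-like cells. Every SyS-like cluster carried the tumor markers *Sox2* and *Tle1*, while *Zic2* was called in only part of them. Each class listed held UMIs of its own naming markers and of those of the others, so detection alone did not separate them. SyS-like clusters were named on 6 to 11 of the 14 tumor markers. The endothelial-like and pericyte-like cells were few in PD+MP, with 39 and 38 cells. Levels are given as CPM, the UMIs of a gene in the summed cells of a class and tumor scaled to a fixed total of UMIs. They are compared between classes for 1 gene but not between genes. With this scaling alone the median gene was higher in SyS-like cells, by 0.442 (pericyte-like), 0.493 (endothelial-like) and 0.897 (macrophage-like) on the log2 scale. With the further scaling of the fits below it was 0.229, 0.264 and 0.346, so CPM ratios of SyS-like to other cells lean upward against the fitted differences. Any pair of libraries shared 15 to 33 cell barcodes.

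*Mdk* was highest in the SyS-like cells of every tumor. Its level in SyS-like cells was 617 CPM in BP replicate 1, 728 in BP replicate 2, 657 in the MP tumor, 290 in MP+BP and 408 in PD+MP. The mean was 540 ± 184 CPM (SD, n = 5), with MP+BP and PD+MP below the other three. Pericyte-like cells had 28.4, 53.1, 35.4, 41.3 and 19.6 CPM in the same order of tumors, macrophage-like cells 28.3, 37.9, 28.1, 19.4 and 23.0, and endothelial-like cells 18.7, 37.0, 12.1, 7.44 and 23.3. The SyS-like values did not overlap those of any of the 3 other classes, whereas the ranges of the other classes overlapped one another. Pooled over tumors, *Mdk* was 15.2-fold higher in SyS-like than in pericyte-like cells, 30.7-fold higher than in endothelial-like cells and 19.8-fold higher than in macrophage-like cells. In T/NK-like lymphoid cells, taken here as the reference for free RNA, *Mdk* stood at 17.8 to 74.8 CPM. This reference rests on 3 to 15 UMIs a tumor. The levels in macrophage-like, endothelial-like and pericyte-like cells did not exceed this range over all tumors. In MP+BP, however, the T/NK-like level was 17.8 CPM (exact Poisson interval 3.68 to 52.1). Pericyte-like cells, at 41.3 CPM (28.7 to 57.4), and macrophage-like cells, at 19.4 CPM, were above it there. In each other tumor all 3 classes were below the T/NK-like level.

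After thinning each cell to 2000 UMIs, 40.3% to 73.9% of SyS-like cells held a UMI of *Mdk*, the lowest share again in MP+BP, against 2.78% to 8.84% of pericyte-like, 0.673% to 7.89% of endothelial-like, 3.86% to 7.36% of macrophage-like and 2.70% to 14.3% of T/NK-like cells. Thinning left out 621 of 27080 SyS-like, 153 of 1247 pericyte-like and 97 of 299 T/NK-like cells, those of lower depth. It left 21 to 54 T/NK-like cells a tumor, and 36 pericyte-like and 38 endothelial-like cells in PD+MP, so these shares rest on few cells. With all UMIs the SyS-like shares were 76.1% to 98.9%, at median depths of 8537.5 to 12297.5 UMIs, and the T/NK-like median depths were 2072 to 2802 UMIs.

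*Ptn* was carried by both SyS-like and endothelial-like cells. In SyS-like cells its level was 436 CPM in BP replicate 1, 516 in BP replicate 2, 2018 in the MP tumor, 684 in MP+BP and 422 in PD+MP, with a mean of 815 ± 681 (SD, n = 5). The MP tumor stood apart, well above the next highest, MP+BP, and without it the other tumors lay between 422 and 684 CPM. In endothelial-like cells *Ptn* was at 698 CPM in BP replicate 1, 1458 in BP replicate 2, 185 in the MP tumor, 199 in MP+BP and 909 in PD+MP, a mean of 690 ± 533. The order of the tumors differed between both classes, since MP was highest for SyS-like cells and lowest for endothelial-like cells. *Ptn* was higher in SyS-like than endothelial-like cells in MP and MP+BP, by 3.45 and 1.78 on the log2 scale, and the log2 difference was -0.68 in BP replicate 1, -1.50 in BP replicate 2 and -1.11 in PD+MP. Pericyte-like cells had 11.03, 44.3, 88.7, 164 and 27.4 CPM of *Ptn*, and macrophage-like cells 11.1, 29.6, 53.3, 19.0 and 14.2. These 2 classes overlapped each other, lay below both SyS-like and endothelial-like cells in all 5 tumors, and overlapped the T/NK-like levels of 33.9 to 114 CPM. In MP+BP, however, the pericyte-like level (exact Poisson interval 138 to 194 CPM) was above the T/NK-like level of that tumor, 47.5 CPM (20.5 to 93.7). In each other tumor the pericyte-like level was below the T/NK-like one.

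**Figure D1:**
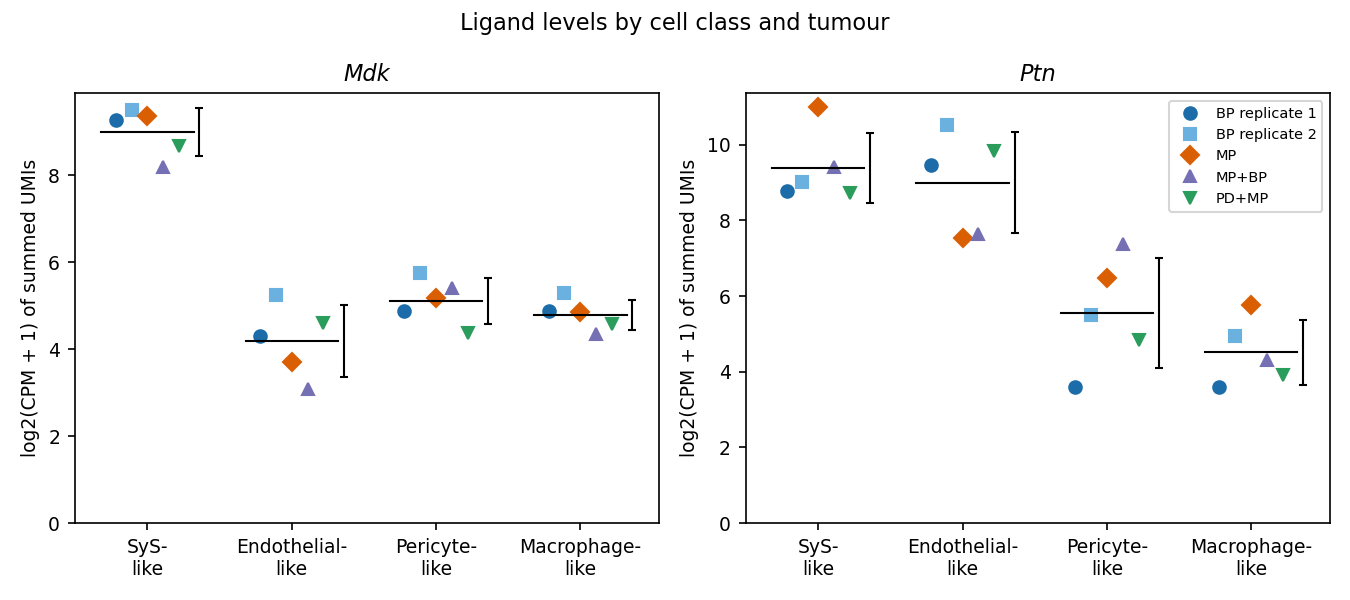
Levels of *Mdk* and *Ptn* as log2(CPM + 1) of summed UMIs (y axis) in 4 cell classes (x axis), where each symbol is 1 tumor, the horizontal line the mean and the error bar the SD over 5 tumors on this scale. *Mdk* in SyS-like cells, 290 to 728 CPM, sits above every other class, while *Ptn* in endothelial-like cells, 185 to 1458 CPM, overlaps SyS-like cells.

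The balance of both ligands also differed between classes. SyS-like cells held 0.706, 0.709, 3.07, 2.36 and 1.03 *Ptn* UMIs per *Mdk* UMI in BP replicate 1, BP replicate 2, MP, MP+BP and PD+MP. Endothelial-like cells held 37.2, 39.4, 15.3, 26.7 and 39.1, and their counting intervals (exact Clopper-Pearson, 95%) lay above the SyS-like ratio in all 5 tumors. T/NK-like cells held 0.533, 1.17, 2.44, 2.67 and 1.00, and the interval contained the SyS-like ratio of the same tumor in 5 of 5 tumors. For pericyte-like cells it did so in 4 of 5 tumors, and for macrophage-like cells in 1 of 5, with the macrophage-like ratio below the SyS-like one in the other 4. The ratio was highest in endothelial-like cells in all 5 tumors among these 5 classes. The summed level of 14 tumor markers was 102 to 264 CPM in endothelial-like cells against 3500 to 4910 CPM in SyS-like cells. After thinning to 2000 UMIs, 20.5% to 71.1% of endothelial-like cells held a UMI of *Ptn*, against 46.2% to 83.9% of SyS-like and 3.70% to 22.0% of T/NK-like cells.

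**Figure D2:**
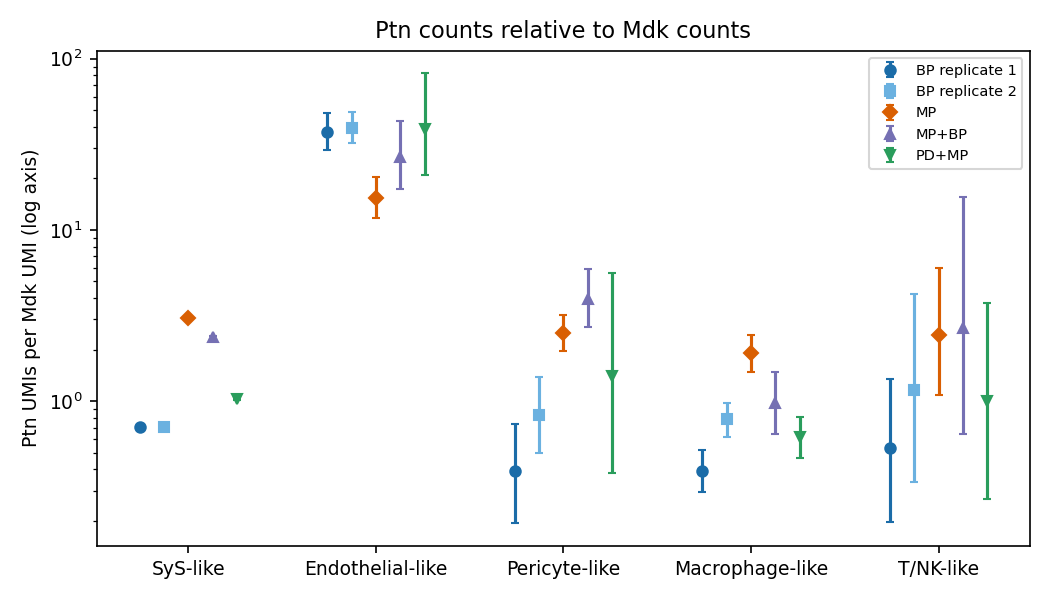
*Ptn* UMIs per *Mdk* UMI (y axis, log scale) in 5 cell classes (x axis), where each symbol is 1 tumor and the bar its exact 95% counting interval. The endothelial-like ratios of 15.3 to 39.4 lie above those of every other class, 0.389 to 3.97.

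*Alk* was far higher in SyS-like cells than in macrophage-like, endothelial-like or pericyte-like cells, and its level differed widely among tumors. In SyS-like cells it reached 31.0 CPM (2032 UMIs) in BP replicate 1, 76.4 CPM (6966 UMIs) in BP replicate 2, 3.36 CPM (250 UMIs) in the MP tumor, 46.7 CPM (3323 UMIs) in MP+BP and 6.51 CPM (471 UMIs) in PD+MP. The 3 tumors with BP in the label were all above the 2 without it, as were 16.7% of all genes tested in SyS-like cells. The exact Poisson intervals of both BP tumors, 29.7 to 32.4 and 74.6 to 78.2 CPM, did not overlap, so these libraries differed by more than counting error. Over the 5 tumors 14 UMIs were found in macrophage-like, 12 in endothelial-like, 3 in pericyte-like and 0 in T/NK-like cells. The 4844 cells in clusters left unnamed held 703 UMIs of *Alk*, at 30.4, 97.8, 5.10, 77.3 and 3.18 CPM in the same order of tumors, so BP replicate 2 and MP+BP were again the highest. Most of these UMIs were in shallow clusters with tumor markers, 313 in one and 373 in another. Pooled over tumors, the ratio of SyS-like to pericyte-like level was 67.2 (counting interval 23.0 to 326), to endothelial-like 41.5 (23.8 to 80.4) and to macrophage-like 58.8 (35.0 to 108). Of the 12 endothelial-like UMIs, 8 came from BP replicate 2, the tumor with the highest level in SyS-like cells. After thinning, 5.42%, 10.7%, 0.660%, 6.25% and 1.00% of SyS-like cells held a UMI of *Alk* in BP replicate 1, BP replicate 2, MP, MP+BP and PD+MP, against 0% to 0.235% of macrophage-like cells, of which 481 to 924 a tumor were deep enough to be thinned.

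*Ptprz1* was sparse, with most of its UMIs in SyS-like cells. Its level in SyS-like cells was 2.00 CPM (131 UMIs) in BP replicate 1, 2.57 CPM (234 UMIs) in BP replicate 2, 0.067 CPM (5 UMIs) in the MP tumor, 6.56 CPM (467 UMIs) in MP+BP and 6.40 CPM (463 UMIs) in PD+MP. MP was nearly devoid of it, with a level inside the ranges of the other classes, and the tumors did not divide by BP in the label. Pericyte-like and endothelial-like cells held 1 UMI each and macrophage-like cells 5 over all tumors, and the mean level of unnamed cells was 1.90 CPM. The pooled ratio of SyS-like to pericyte-like level was 20.1 with a counting interval of 3.60 to 795, to endothelial-like 49.7 (8.90 to 1963) and to macrophage-like 16.4 (7.02 to 50.6). With all UMIs counted, 0.114% of SyS-like cells in MP and up to 5.25% in PD+MP held a UMI of *Ptprz1*. Thinned to 2000 UMIs, the share was 0 of 4391 cells in MP, which allows up to 0.0683% of cells with a UMI at this thinned depth (exact upper limit 0.084%), and 1.38% in PD+MP.

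Among the 4 classes compared, *Lrp1* was highest in macrophage-like and pericyte-like cells and lowest in endothelial-like cells. Macrophage-like cells had 215 CPM in BP replicate 1, 186 in BP replicate 2, 236 in the MP tumor, 221 in MP+BP and 260 in PD+MP, with a mean of 224 ± 27.1 (SD, n = 5). Pericyte-like cells had 195, 230, 211, 202 and 145 CPM, a mean of 197 ± 31.7 that overlapped the macrophage-like range. SyS-like cells had 65.3, 54.8, 75.0, 81.9 and 50.4 CPM, and endothelial-like cells 17.6, 17.8, 25.6, 24.8 and 18.6 CPM. The SyS-like values lay below every pericyte-like value and above every endothelial-like value. T/NK-like cells held 1 UMI of *Lrp1* in all.

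Among the same 4 classes, *Sdc3* was highest in macrophage-like cells and lowest in SyS-like cells. Macrophage-like cells had 157 CPM in BP replicate 1, 131 in BP replicate 2, 99.2 in the MP tumor, 111 in MP+BP and 235 in PD+MP. Endothelial-like cells had 76.6, 84.3, 59.9, 55.3 and 74.4 CPM, all below the macrophage-like values. Pericyte-like cells had 62.2, 47.2, 41.2, 37.7 and 62.7 CPM and SyS-like cells 34.8, 42.7, 25.8, 33.26 and 19.1 CPM. Ranges of neighbors in this order overlapped from endothelial-like to pericyte-like and from pericyte-like to SyS-like, although within each of the 5 tumors the former was the higher one. T/NK-like cells held 3 UMIs of *Sdc3* in all.

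**Figure D3:**
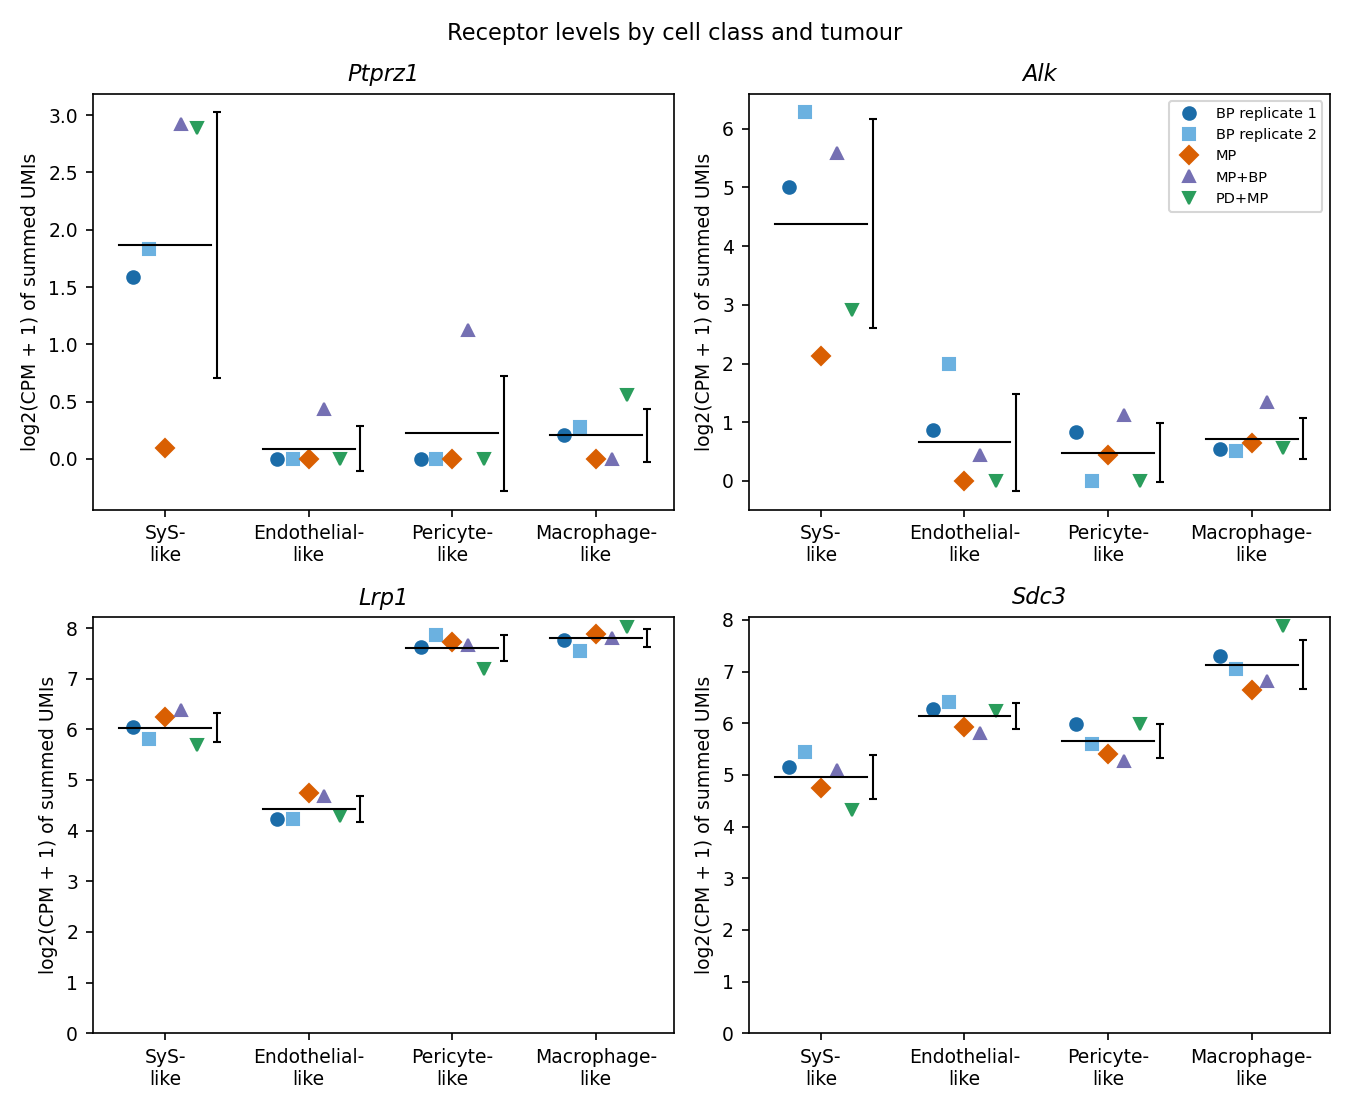
Levels of *Ptprz1*, *Alk*, *Lrp1* and *Sdc3* as log2(CPM + 1) of summed UMIs (y axis, own scale per gene) in 4 cell classes (x axis), where each symbol is 1 tumor, the horizontal line the mean and the error bar the SD over 5 tumors on this scale. *Alk* in SyS-like cells spans 3.36 to 76.4 CPM, while *Lrp1* in macrophage-like cells spans only 186 to 260 CPM.

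To ask which of these differences exceed their own variation from tumor to tumor, SyS-like sums were set against those of each other class. The tumor was a block, which removes differences in level between tumors, and edgeR's quasi-likelihood test was used over all genes. Against pericyte-like cells 4 members were called higher and 2 lower, while 21.3% of 20036 genes tested were called higher and 15.0% lower. *Mdk* was higher by 3.69 ± 0.24 on the log2 scale (SE, adjusted p = 2.5e-08), *Ptn* by 3.61 ± 0.36 (adjusted p = 1.8e-06) and *Alk* by 5.32 ± 0.51 (adjusted p = 1.0e-06). *Lrp1* was lower, by -1.785 ± 0.163 (adjusted p = 6.6e-07) and *Sdc3* by -0.87 ± 0.22 (adjusted p = 0.0060). *Ptprz1* was higher by 3.38 ± 0.93 (adjusted p = 0.011), a call that rests on a single pericyte-like UMI, in MP+BP, and was lost with DESeq2 (adjusted p = 0.069) and without the tumor block (adjusted p = 0.088). Without MP+BP the fitted *Ptprz1* difference was 8.67, against a class then at 0 UMIs, so its size depends on the fit's prior count, and it was 9.05 with at least 1500 genes per cell. The *Alk* difference was 4.61 without BP replicate 2 and 6.81 with at most 10% mitochondrial UMIs. With fibroblast-like cells added to the pericyte-like ones, the differences of *Ptn* and *Mdk* were 2.68 (adjusted p = 0.037) and 3.07 (adjusted p = 0.00095). The calls of *Alk*, *Ptn* and *Mdk* held under these changes.

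Against endothelial-like cells 4 members were called higher and 1 lower, with 30.2% of 20337 genes called higher and 20.3% lower. *Mdk* was higher by 4.73 ± 0.23 (SE, adjusted p = 5.9e-08), *Alk* by 5.15 ± 0.37 (adjusted p = 9.0e-07), *Ptprz1* by 4.91 ± 0.73 (adjusted p = 0.00023) and *Lrp1* by 1.44 ± 0.15 (adjusted p = 1.9e-05). *Sdc3* was lower, by -1.39 ± 0.17 (adjusted p = 4.4e-05). For *Ptn* the fitted difference was 0.05 ± 0.64 (adjusted p = 0.96), with 2 of 5 tumors higher in SyS-like cells, and it was -0.65 without MP and -0.40 without MP+BP. With doublets kept the differences of *Mdk*, *Alk* and *Ptprz1* were 2.55, 2.44 and 2.12, all still called. Without MP+BP, which held the lone endothelial-like UMI, the fitted difference of *Ptprz1* was 8.92, and with DESeq2 it was 3.71. The *Lrp1* difference was 3.45 with at least 1500 genes per cell, and that of *Alk* was 5.76 without BP replicate 2.

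Against macrophage-like cells 4 members were called higher and 2 lower, with 36.8% of 20433 genes called higher and 24.3% lower. *Ptn* was higher by 4.39 ± 0.21 (SE, adjusted p = 6.9e-09), *Mdk* by 3.72 ± 0.17 (adjusted p = 3.9e-09), *Alk* by 4.88 ± 0.47 (adjusted p = 2.7e-06) and *Ptprz1* by 3.53 ± 0.55 (adjusted p = 0.00015). *Sdc3* was lower by -2.76 ± 0.26 (adjusted p = 2.1e-06) and *Lrp1* by -2.34 ± 0.16 (adjusted p = 1.4e-07). With doublets kept the first 4 differences were 2.33, 2.13, 2.39 and 1.65, all still called, and without BP replicate 2 that of *Alk* was 4.15. The 3 comparisons share their SyS-like sums and are not independent of one another.

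**Figure D4:**
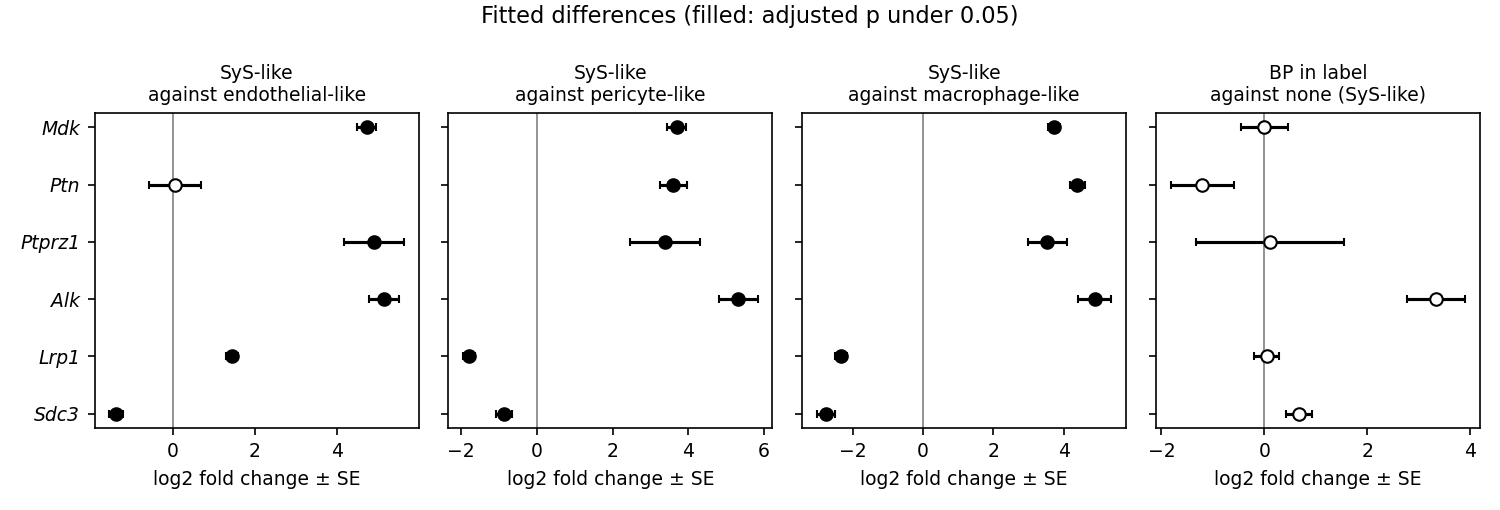
Fitted log2 fold changes with their SE (x axis) of the 6 members (y axis) in 4 comparisons, filled where the adjusted p of edgeR was under 0.05. *Ptn* against endothelial-like cells, at 0.05, is the only open symbol among the 3 class comparisons, and all 6 are open for the histology label.

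The label comparison asked whether SyS-like cells of the 3 tumors with BP in the label differed from those of the 2 without. No gene of 20738 was called by edgeR (background 0% in either direction), although before adjustment 1162 higher and 825 lower genes had a p under 0.05, and DESeq2 called 449 higher and 101 lower. Without MP, edgeR called 363 higher and 227 lower, none of them a member. *Alk* was higher by 3.34 ± 0.57 on the log2 scale (SE, edgeR adjusted p = 0.41), and DESeq2 called it (adjusted p = 7.9e-07). *Sdc3* was higher by 0.67 ± 0.25 (edgeR adjusted p = 0.50). *Alk* and *Sdc3* were the members whose values did not overlap between both sides, beside the 16.7% of all genes that did not overlap in that direction. The difference for *Ptn* was -1.21 ± 0.61 (edgeR adjusted p = 0.56) and turned to 0.26 without MP, that for *Ptprz1* was 0.12 ± 1.43 and ranged from -0.91 without MP to 5.69 without PD+MP, and those for *Mdk* and *Lrp1* were -0.003 ± 0.457 and 0.045 ± 0.25. None of these 4 passed the test.

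Within SyS-like cells, the 13 clusters were mostly tumor-specific, with 7 of them drawing over 90% of their cells from 1 tumor, so levels are given per cluster within a tumor. One cluster, led by *Mgp*, *Penk* and *Srpx*, held at least 50 cells in all 5 tumors. In this cluster *Alk* was at 7.73 CPM (18 UMIs) in BP replicate 1, 3.02 (18 UMIs) in BP replicate 2 and 2.34 (2 UMIs) in the MP tumor. It was at 7.399 CPM (55 UMIs) in MP+BP and 9.65 (14 UMIs) in PD+MP. The values of both sides of the label thus overlapped there, unlike those of all SyS-like cells, though on few UMIs. In BP replicate 2 the highest cluster, led by *Hpse2*, *Gm29478* and *Mapk10*, had 93.8 CPM of *Alk*, 31.1-fold the level of the *Mgp* cluster. In BP replicate 1 the same pair of clusters differed 7.38-fold, and in MP+BP the highest cluster differed 10.1-fold from the *Mgp* cluster. In MP and PD+MP the clusters spanned only 1.53-fold and 2.03-fold.

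*Ptprz1* in MP+BP came mainly from 1 cluster. Its 524 cells there, led by the mitotic genes *Cdc20*, *Pimreg* and *Ska1*, held 394 of the 467 *Ptprz1* UMIs of the tumor's SyS-like cells (84.4%), at 46.2 CPM. The other clusters of that tumor lay at 0.472 to 1.88 CPM. The 918 cells of this cluster in MP held 3 UMIs (0.153 CPM), so cells of 1 cluster differed between these 2 tumors. In PD+MP *Ptprz1* reached 7.77 CPM in the cluster led by *Gap43*, *Uty* and *Xkr4*, and was at 0.689 CPM in the *Mgp* cluster.

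*Ptn* was lowest in the *Mgp* cluster in both BP tumors, at 259 and 133 CPM, and highest in a mitotic cluster led by *Meioc*, *Cenpf* and *Stag3*, at 704 and 707 CPM. In MP, every cluster had at least 1226 CPM of *Ptn*, above the highest cluster of both BP tumors and of PD+MP. In MP+BP *Ptn* ranged 5.82-fold, from 234 CPM in the cluster led by *Trac*, *Kctd8* and *Npnt* to 1362 CPM in the cluster led by *Cdc20*. *Mdk* varied less between clusters, by 1.17-fold to 3.29-fold within a tumor. The *Mgp* cluster had the lowest *Mdk* of its tumor in both BP tumors and MP, and the highest in MP+BP and PD+MP. *Lrp1* was highest in the *Mgp* cluster in all 5 tumors, at 88.1 to 96.5 CPM, against 40.3 to 82.8 CPM in the other SyS-like clusters. *Sdc3* was highest in the cluster led by *Ecrg4*, *Gm29478* and *Col4a6* in both BP tumors, at 55.1 and 70.0 CPM.

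**Figure D5:**
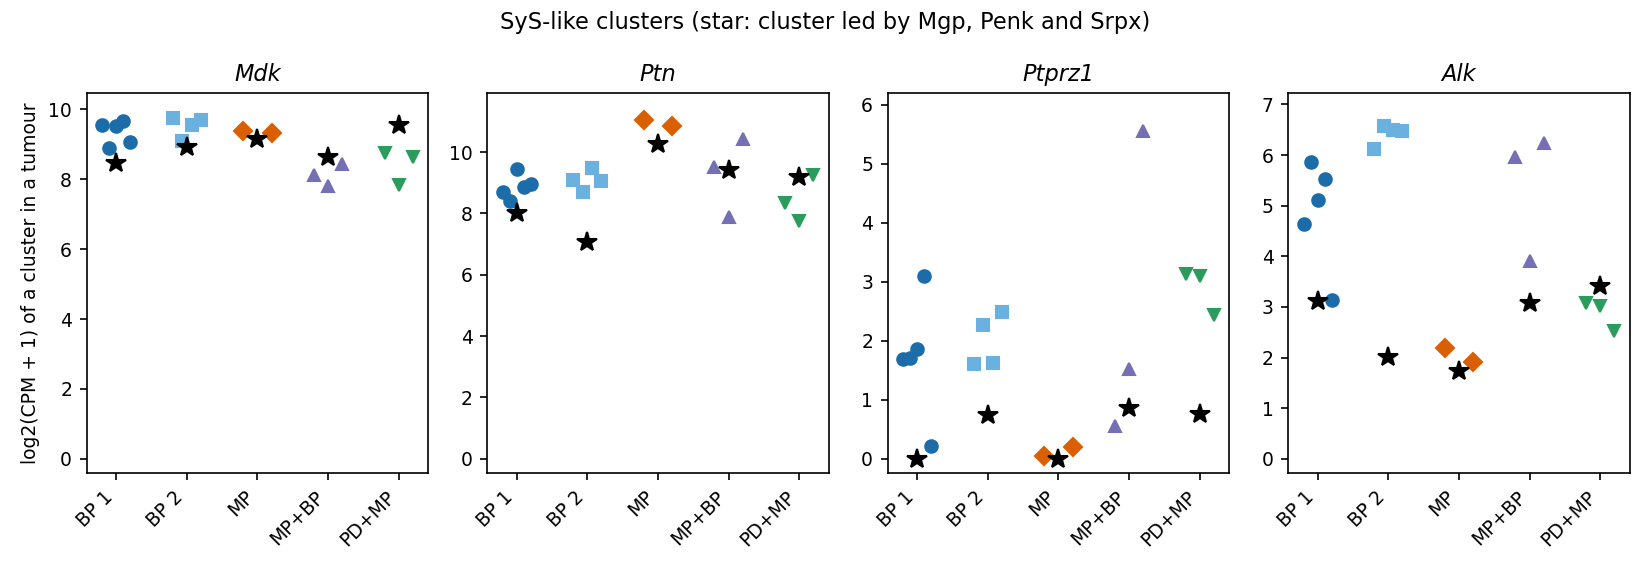
Levels of *Mdk*, *Ptn*, *Ptprz1* and *Alk* as log2(CPM + 1) (y axis, own scale per gene) in SyS-like clusters of at least 50 cells in each tumor (x axis), where each symbol is a cluster in 1 tumor and the star the cluster led by *Mgp*, *Penk* and *Srpx*. The star for *Alk* lies between 2.34 and 9.65 CPM in every tumor, while other clusters of BP replicate 2 reach 93.8 CPM.

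Many SyS-like cells held UMIs of both ligands, each of which was also common by itself. After thinning to 2000 UMIs, 39.9% of SyS-like cells held a UMI of both in BP replicate 1, 42.5% in BP replicate 2, 62.9% in the MP tumor, 26.1% in MP+BP and 25.5% in PD+MP. The share with *Mdk* was 71.8%, 73.6%, 73.9%, 40.3% and 51.9% in the same order of tumors. The share with *Ptn* was 53.7%, 55.1%, 83.9%, 59.4% and 46.2%. Whether more cells than these separate shares would give held both ligands was not tested. Only 5.12% of SyS-like cells in MP held neither, against 27.4% in PD+MP. Among SyS-like cells with a UMI of *Alk*, 83.4%, 88.8%, 96.6%, 85.8% and 64.4% held a UMI of at least 1 ligand in the same order of tumors, compared with 85.7%, 85.9%, 94.9%, 72.8% and 72.7% of cells without *Alk*. The *Alk* cells numbered 199, 731, 29, 353 and 59. The share was higher with *Alk* in BP replicate 2, MP and MP+BP and lower in BP replicate 1 and PD+MP. Cells of a tumor are not replicates, so no test was made.

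A list of 18 genes held other possible receptors and binding partners of the growth factors, whose binding was not examined here. Of these, 7 were called higher and 8 lower in SyS-like than in pericyte-like cells. Against endothelial-like cells 9 were higher and 6 lower, and against macrophage-like cells 7 were higher and 4 lower. Over all genes tested, 21.3% were called higher and 15.0% lower against pericyte-like cells, 30.2% and 20.3% against endothelial-like cells, and 36.8% and 24.3% against macrophage-like cells. The median log2 differences of the 18 were 0.32, 0.78 and 0.04, beside medians of 0.23, 0.26 and 0.35 over all genes tested. *Lrp2* (megalin, an endocytic receptor related to *Lrp1*) was higher in SyS-like cells in all 3, by 4.70 ± 0.40 (SE), 5.10 ± 0.37 and 4.06 ± 0.32 on the log2 scale, with a SyS-like mean of 44.7 ± 14.2 CPM (SD, n = 5). *Ptprb* (the endothelial phosphatase VE-PTP) stood at 488 ± 93.9 CPM in endothelial-like and 0.715 ± 0.370 CPM in SyS-like cells, a log2 difference of -9.70 ± 0.25. *Itgb3* (integrin beta 3) was also lower in SyS-like than in endothelial-like cells, by -4.78 ± 0.62. *Cspg4* (the NG2 proteoglycan of pericytes) was lower than in pericyte-like cells by -5.11 ± 0.20, and *Lrp8* (a reelin and apolipoprotein E receptor) higher by 4.70 ± 0.51. *Sdc2* (syndecan 2) and *Vcan* (the matrix proteoglycan versican) were higher than in macrophage-like cells, by 4.0 ± 0.22 and 3.74 ± 0.31.

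Of 7 ALK ligands and adaptors, including the related kinase gene *Ltk*, 0 were higher and 2 lower in SyS-like than in pericyte-like cells, beside 21.3% and 15.0% of all genes. Against endothelial-like cells 1 was higher and 1 lower, beside 30.2% and 20.3%, and against macrophage-like cells 3 were higher and 0 lower, beside 36.8% and 24.3%. The medians of the 7 were -0.12, 0.07 and 1.58, beside 0.23, 0.26 and 0.35 over all genes. *Irs1* (insulin receptor substrate 1, an adaptor) was higher than in endothelial-like cells by 3.76 ± 0.32 (SE) and than in macrophage-like cells by 4.33 ± 0.20. *Plcg1* (phospholipase C gamma 1) was lower than in endothelial-like cells, by -1.45 ± 0.15, and higher than in macrophage-like cells, by 1.58 ± 0.20. *Shc1*, an adaptor, was higher than in macrophage-like cells by 0.88 ± 0.17. *Frs2*, an adaptor better known from FGF receptors, differed from pericyte-like cells by -0.70 ± 0.17. The ALK ligand *Alkal2* averaged 0.837 ± 0.163 CPM over the SyS-like sums (SD, n = 5) and 2.95 ± 4.42 CPM in pericyte-like cells, where 18 UMIs were seen, and its fitted difference was -2.0 ± 0.64, with SyS-like cells higher in 2 of 5 tumors.

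The 12 partners, substrates and paralogue of PTPRZ1 gave 5 higher and 3 lower against pericyte-like cells (all genes 21.3% and 15.0%), 5 higher and 6 lower of 11 tested against endothelial-like cells (30.2% and 20.3%), and 7 higher and 2 lower against macrophage-like cells (36.8% and 24.3%). Their medians were 0.58, -1.09 and 1.89, beside 0.23, 0.26 and 0.35 over all genes. *Cntn1* (contactin 1, a neuronal adhesion molecule that binds PTPRZ1) was higher in SyS-like cells in all 3 comparisons, by 4.19 ± 0.49 (SE), 5.87 ± 0.43 and 4.75 ± 0.36, at a level that varied widely among tumors (25.1 ± 36.7 CPM, SD, n = 5). *Ncam1* (neural cell adhesion molecule 1) was higher by 4.19 ± 0.29 against pericyte-like and 4.51 ± 0.19 against macrophage-like cells. *Tnc* (tenascin C) was higher by 4.66 ± 0.27 against macrophage-like cells. For *Tnr* (tenascin R) the fitted difference from pericyte-like cells was -3.20 ± 1.04, on 6 pericyte-like UMIs, although SyS-like cells were higher in 3 of 5 tumors. *Fyn* (a Src family kinase) and *Add2* (beta adducin) were lower than in endothelial-like cells, by -3.53 ± 0.19 and -5.32 ± 0.41.

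Of the chaperone and ligands of LRP1, 8 genes, 1 was higher and 4 lower against pericyte-like cells (all genes 21.3% and 15.0%), 2 higher and 3 lower against endothelial-like cells (30.2% and 20.3%), and 2 higher and 6 lower against macrophage-like cells (36.8% and 24.3%). Their medians were -2.06, -0.22 and -1.45, beside 0.23, 0.26 and 0.35 over all genes. *App* (amyloid precursor protein) was lower than in pericyte-like, endothelial-like and macrophage-like cells by -3.77 ± 0.51 (SE), -4.28 ± 0.59 and -4.22 ± 0.55 on the log2 scale. *Plat* (tissue plasminogen activator) was lower than in pericyte-like and endothelial-like cells, by -5.95 ± 0.22 and -4.33 ± 0.24. *Apoe* (apolipoprotein E) was lower than in macrophage-like cells by -6.34 ± 0.38. None of the genes in these 4 lists was called for the histology label by edgeR, where 0% of all genes were.

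Over the 20 sums of 4 classes and 5 tumors, the patterns most like that of each member among 11815 genes were named by Pearson's r of log2(CPM + 1), as a description, since sums of 1 tumor share a library. *Mdk* was most like *Gpc3* (r = 0.989), *Macrod1* (r = 0.977) and *Gsta4* (r = 0.971). *Ptn* was most like *Sox11* (r = 0.935), *4930500H12Rik* (r = 0.919) and *Mecom* (r = 0.905). *Alk* was most like *Unc5d* (r = 0.963), *Gad2* (r = 0.949) and *Slc1a3* (r = 0.946). *Ptprz1* was most like *Cntn1* (r = 0.891), *Rspo3* (r = 0.889) and *Unc5d* (r = 0.880). *Lrp1* was most like *Cd63* (r = 0.956), *Pid1* (r = 0.953) and *Arhgef10l* (r = 0.949), and *Sdc3* most like *Lipa* (r = 0.941), *P2rx7* (r = 0.934) and *Sp110* (r = 0.929).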

How the data were processed

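Per the labels and the study's methods, dissociated tumors were captured with Chromium 3′ v3.1 chemistry, and the authors deposited UMI counts per gene and cell, made with Cell Ranger 7.2.0 on mm10. Called cells numbered 8931 to 11565 a tumor, with 89996321 to 118649103 UMIs. Cells with at least 750 genes and at most 25% mitochondrial UMIs were kept, and simulated-doublet calls removed 358 to 856 cells a tumor. Clustering (scanpy 1.11.5, leidenalg 0.10.2, 3000 features, 30 components, resolution 1.0) left out the members, and clusters were named from marker lists. Counts were summed per tumor and class (at least 20 cells) and tested with edgeR 4.0.16's quasi-likelihood test, Benjamini-Hochberg adjusted over all genes, with the tumor as a block between classes, because both sums come from the same tumor. DESeq2 1.42.0 was an alternative. Scripts were tested on simulated data.

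The members and lists were chosen with earlier results of these data known. Genes named from the 4 lists were, for each list and comparison, the called genes with the 3 largest absolute differences, and 1 gene that this rule names is not reported here. Replicate numbers of the BP tumors follow deposit order and pair nothing. Whether the tumors come from separate animals was not stated, so p-values refer to the spread between these tumors. For the class comparisons that is the spread of the difference within a tumor. Intervals cover counting error only. Reads of overlapping or antisense genes may not be fully separable, and free RNA was not subtracted.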

Additional observations from a re-analysis of the deposited data

Results flagged for a closer look

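*Ptn* in SyS-like cells was far higher in MP, at 2018 CPM, than in the other 4 tumors. The remaining single-tumor departures rest on very few UMIs. *Ptprz1* was highest in MP+BP in endothelial-like cells (0.355 CPM, 1 UMI) and in pericyte-like cells (1.18 CPM, 1 UMI). *Alk* in macrophage-like cells was highest in MP+BP (1.55 CPM, 4 UMIs), and *Alk* in endothelial-like cells was highest in BP replicate 2 (2.96 CPM, 8 UMIs). Each of these was picked out because 1 of 5 tumors lay far from the rest by Dixon's criterion, and 24 groups were examined. Chance meets the criterion in about 1 in 20 groups of normally distributed values, a rate that does not apply to such low counts. For *Ptprz1* in both classes only 1 tumor held a UMI, so the criterion was met by construction and the flag carries no weight.

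The *Ptn* difference between SyS-like and endothelial-like cells pointed in opposite directions by label. On the log2 scale it was 3.45 in MP and 1.78 in MP+BP, against a mean of -1.09 in the BP tumors and -1.11 in PD+MP. With 1 tumor for 3 of the labels, the difference between labels was not tested.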

How the results depend on the processing

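Between classes, 291 of 299 member differences under the alternatives kept their direction and side of the threshold. *Ptn* against endothelial-like cells, never called, turned to -0.085 with SyS-like sums thinned to the other class, -0.412 with all 4 classes in 1 fit, -0.014 with at least 1500 genes per cell and -0.062 with doublets kept, and ranged from -0.649 to 0.58 without 1 tumor. *Ptprz1* against pericyte-like cells lost its call with DESeq2 (2.31) and without the replicate block (4.0), and the block changed no other member call. For the histology label, where no member was called by edgeR, *Lrp1* was -0.01 and *Ptprz1* -0.062 with doublets kept, and *Mdk* was 0.028 with at least 10 counts in every sum and 0.034 without scaling beyond total counts. Without 1 tumor, *Mdk* ranged from -0.316 to 0.323, *Ptn* from -1.937 to 0.26, *Ptprz1* from -0.907 to 5.691 and *Lrp1* from -0.208 to 0.303. DESeq2 called 449 genes higher and 101 lower, with 1 member higher, and leaving out 1 tumor gave 0 to 363 higher and 0 to 227 lower.

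Requiring at least 10 counts in every sum tested fewer genes, and left 1955 higher and 1905 lower against endothelial-like, 3318 and 3092 against macrophage-like, and 1076 and 1151 against pericyte-like cells, with 1, 2 and 0 members higher. With SyS-like sums thinned to the other class, 2419 genes were higher and 2457 lower against pericyte-like cells. The median of all genes was then 0.029, 0.073 and 0.078 against pericyte-like, endothelial-like and macrophage-like cells, in place of 0.229, 0.264 and 0.346. Without scaling, higher genes made up 70.1%, 69.6% and 77.1% of calls against pericyte-like, endothelial-like and macrophage-like cells, in place of 58.8%, 59.7% and 60.2%, and the median of all genes was 0.442, 0.493 and 0.897. The causes were not tested. Members with too few counts under a filter gave no value. *Ptprz1* and *Alk* outside SyS-like cells were near the counting limit.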

Other observations

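Cells in classes outside the comparisons also carried the members. Fibroblast-like cells, 126 of 147 of which came from PD+MP, had 196 CPM of *Mdk*, 719 of *Ptn*, 451 of *Lrp1* and 17.4 of *Sdc3* in that tumor, with no UMI of *Alk* or *Ptprz1*. Their 3.66 *Ptn* UMIs per *Mdk* UMI exceeded the 1.03 of SyS-like cells of the same tumor. B-like cells, 195 in all, had mean levels of 113 CPM of *Lrp1* (40 UMIs) and 97.3 CPM of *Sdc3* (33 UMIs). They held 2 UMIs of *Ptprz1*, in PD+MP, and no UMI of *Alk*.

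Macrophage-like clusters differed in *Sdc3*. The cluster led by *Spp1*, *Ms4a4c* and *Ly6c2* had 247 CPM and the cluster led by *Cd14*, *Ccl4* and *Fcrls* 124 CPM over all tumors. Within tumors the former was higher in BP replicate 1 (231 against 127 CPM), MP+BP (131 against 112) and PD+MP (285 against 143) and lower in MP (83.7 against 103).

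An unnamed cluster of 1194 shallow cells, in which all 11 endothelial markers were found, had 764 CPM of *Ptn*, 41.2 of *Mdk*, 74.7 of *Sdc3* and 4.70 of *Lrp1*. Unnamed shallow clusters with tumor markers held *Alk* at 62.2 CPM in 1968 cells and 124 CPM in 1101 cells.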
